A study of Mus musculus with 2 samples.

Results

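Adrenomedullin and apelin are small secreted peptides that widen blood vessels, and they are described here together with their receptors in mouse cells given an agent labelled S180 or the solvent DMSO. The set holds 8 genes: the peptide genes Adm, Adm2 and Apln, and the receptor genes Calcrl, Ramp1, Ramp2, Ramp3 and Aplnr. They were chosen by symbol, as all probes whose gene name in the scanner files is one of these symbols, which gave 12 of 56602 probes and 8 of 37006 named targets. Earlier results of these arrays, with higher signals of Adm and Apln in S180, were known when the set was drawn up. The values of all members are therefore a description, and no test is made of them.

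The study had 2 arrays. The S180 array held total RNA from mouse cells given the agent S180, and the DMSO array held total RNA from mouse cells given DMSO. The labels give neither the cell type, strain, dose, exposure time nor the nature of S180. Each group is 1 array, so the differences have no replicate check and no p-value, and their precision is limited by that number.

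Adrenomedullin, encoded by Adm, signals through a receptor made of 2 proteins: the calcitonin receptor-like receptor, encoded by Calcrl, and a receptor activity-modifying protein (RAMP), a single-span partner that brings the receptor to the cell surface and sets which peptide it binds. With RAMP2 or RAMP3 the complex is an adrenomedullin receptor, and with RAMP1 it is the receptor of calcitonin gene-related peptide. Adrenomedullin 2, also called intermedin and encoded by Adm2, binds the complexes of Calcrl with each of the RAMPs, and these receptors raise cyclic AMP through the G protein Gs. Apelin, the product of Apln, acts on a separate receptor, Aplnr (also called APJ), which couples to Gi. Adm and Apln are known as genes that many cell types transcribe more when oxygen is low, through the hypoxia-inducible factor (HIF), whose core binding site reads ACGTG or GCGTG.

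The genes for the peptides and those for the receptors showed different patterns. All 3 peptide genes were more than 3-fold higher in S180, with Adm2 at 5.62-fold, Adm at 4.72-fold and Apln at 3.16-fold. No measured receptor gene was 2-fold apart in either direction, and the RAMP genes Ramp2 and Ramp3 were lower in S180 on every probe. Aplnr, the apelin receptor gene, was not well above background on either array.

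The upstream sequences of the peptide genes are shown because these genes were higher together. That of Ramp3 is shown because it holds the HIF core, as only that of Adm does among the peptide genes. Ramp3 itself was not higher in S180. Each sequence is the 250 bases before the gene's start in RefSeq (build GRCm38.p6), read on the strand of the gene. Matches to the HIF core on either strand are in capitals. A match on the opposite strand reads CACGT or CACGC. The Adm stretch lies at chr7:110627407-110627656 on the plus strand, that of Adm2 at chr15:89322470-89322719 on the plus strand, that of Apln at chrX:48034854-48035103 on the minus strand, and that of Ramp3 at chr11:6658283-6658532 on the plus strand.
Adm: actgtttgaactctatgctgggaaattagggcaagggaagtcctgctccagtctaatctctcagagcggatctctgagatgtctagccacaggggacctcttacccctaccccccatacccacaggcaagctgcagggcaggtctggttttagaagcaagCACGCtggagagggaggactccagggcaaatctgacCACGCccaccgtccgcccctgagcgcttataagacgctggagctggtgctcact
Adm2: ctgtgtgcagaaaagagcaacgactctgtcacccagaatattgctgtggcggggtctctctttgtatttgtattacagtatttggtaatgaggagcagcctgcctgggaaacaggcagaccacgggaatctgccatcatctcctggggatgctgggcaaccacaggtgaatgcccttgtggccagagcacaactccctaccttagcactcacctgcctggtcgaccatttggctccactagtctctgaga
Apln: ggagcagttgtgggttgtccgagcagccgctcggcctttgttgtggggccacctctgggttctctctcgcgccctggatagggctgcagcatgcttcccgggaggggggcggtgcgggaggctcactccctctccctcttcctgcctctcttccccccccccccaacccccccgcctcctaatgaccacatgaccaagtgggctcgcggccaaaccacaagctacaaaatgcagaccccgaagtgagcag
Ramp3: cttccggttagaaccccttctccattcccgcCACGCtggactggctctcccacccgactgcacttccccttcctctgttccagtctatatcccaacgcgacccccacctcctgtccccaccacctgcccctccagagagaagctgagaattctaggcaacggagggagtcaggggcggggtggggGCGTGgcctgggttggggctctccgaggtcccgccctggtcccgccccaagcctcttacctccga

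The window of Adm held 2 matches to GCGTG, both on the strand opposite to the gene, beginning 90 and 54 bases before the start. It also held the letters TATAA on both strands, in overlapping matches that begin 28 and 27 bases before the start. The windows of Adm2 and Apln held no match to either form of the HIF core and none to TATAA, which says only that these letters are not in these 250 bases. Ramp3 also had 2 matches to GCGTG, beginning 219 and 65 bases before the start. Of 32851 RefSeq promoter windows of the same length, 38.6% held at least 1 match to ACGTG or GCGTG on either strand, 28.2% held GCGTG, 16.6% held ACGTG and 22.8% held TATAA. RefSeq promoters were found for 6 members, and those of Calcrl and Ramp1 held none of these letters. The cyclic AMP response element TGACGTCA, searched on both strands, was in none of the 6 windows and in 1.5% of all. The GC content was 65.2% in both Apln and Ramp3, 56.8% in Adm and 52.8% in Adm2, beside a median of 52.4% over all windows.

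Each array was scaled by subtracting the 75th percentile of its own log2 processed signals, which stood at a signal of 615.5 in S180 and 747.9 in DMSO, so a difference is relative to the bulk of each array. Measured genes are those whose brightest probe carried the scanner software's flag for a signal well above background in S180 and in DMSO, which held for 20751 targets and for 7 of the 8 members. Of the probes of members 10 were measured, and each was printed as 1 spot. The error of a single difference is given in 2 ways. The first is the scanner software's own error model, carried through to the log2 difference. The other is the spread of replicate spots of other probes, whose difference had an SD of 0.041 (log2) for the bright tertile of genes (260 replicated probes), 0.072 for the middle tertile (6 probes) and 0.256 for the dim tertile (11 probes). Both leave out the spread between cultures and between RNA extracts.

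Adm, the adrenomedullin gene, had a processed signal of 10742 in S180 and 2767 in DMSO. Scaled, these were log2 4.13 in S180 and 1.89 in DMSO, a difference of 2.24 ± 0.20 (scanner error). Its single probe covers positions 117773088 to 117773147 of chromosome 7; positions of probes are on build mm9 throughout. Only 4 of the measured genes had a larger difference, and in the bright tertile, to which Adm belongs, only 1 of 6917 did.

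Adm2, the gene of adrenomedullin 2, had a signal of 599 in S180 and 130 in DMSO, both well above background. The scaled values were log2 -0.04 in S180 and -2.53 in DMSO, and the difference was 2.49 ± 0.21. It was the largest difference of any member, and 2 measured genes exceeded it. The probe lies on chromosome 15 from 89155040 to 89155099. A spike-in control with a signal near that of Adm2 in DMSO, 109 in S180 and 103 in DMSO, had an SD of 0.138 for a single-spot difference (35 spots).

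Apln, which encodes the apelin precursor, had a signal of 1212 in S180 and 465 in DMSO, or log2 0.98 in S180 and -0.68 in DMSO after scaling. The difference was 1.66 ± 0.20, and 21 measured genes had a larger one. Its probe lies on the X chromosome from 45378593 to 45378652, on the minus strand. On the log2 scale the Apln difference was smaller than that of Adm by 0.58, beyond the scanner error of either; a factor common to an array cancels in this contrast.

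At least 2-fold higher in S180 were 3 of the 7 measured members, against 0.588% of all measured genes (122 of 20751), and 0 of 7 were 2-fold lower, against 0.169% of all (35 genes). The share of all genes 2-fold higher was 0.636% in the bright tertile, which holds Adm and Ramp2, 0.52% in the middle tertile, which holds Adm2 and Apln, and 0.607% in the dim tertile, which holds Calcrl, Ramp1 and Ramp3. At 1.5-fold the members' counts were the same, 3 higher and 0 lower, while 3.08% of all genes were higher and 1.71% lower. Since the values chose the set in part, nothing is read from these shares.

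**Figure D1:**
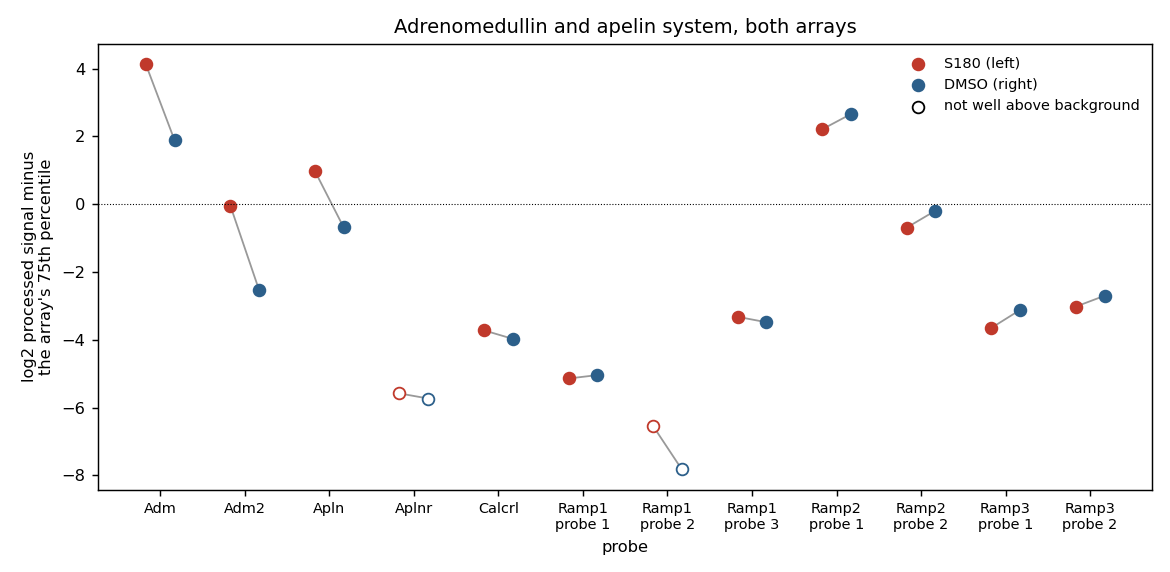
Log2 processed signal minus the array's 75th percentile (y axis) for each of the 12 probes (x axis), with the S180 array on the left and the DMSO array on the right of each pair; each point is 1 array, and open points are not well above background. The S180 point is higher for Adm (4.13 against 1.89), Adm2 and Apln and lower for both probes of Ramp2 and of Ramp3; heights of different probes are not comparable, since probes differ in brightness for the same amount of RNA.

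**Figure D2:**
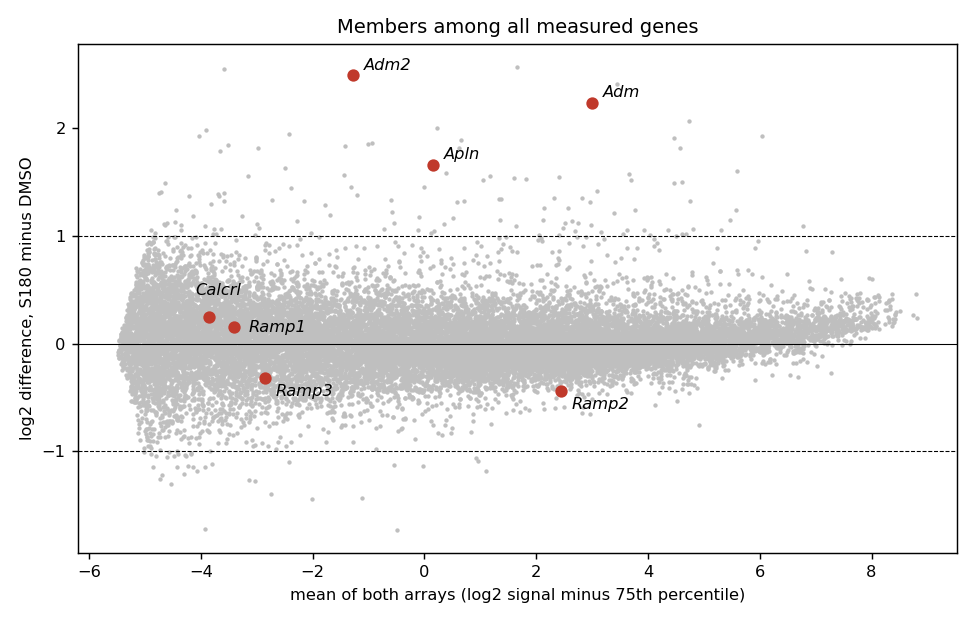
Log2 difference, S180 minus DMSO (y axis), against the mean scaled signal of both arrays (x axis) for the 20751 measured genes in grey and the 7 measured members in red, each on its brightest probe; dashed lines mark 2-fold. Adm2, Adm and Apln lie far above the cloud at 2.49, 2.24 and 1.66, Ramp2 lies at its lower edge at -0.44, and Calcrl, Ramp1 and Ramp3 lie within it.

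Calcrl, the receptor subunit shared by both adrenomedullins, was dim on its single probe, with a signal of 46.6 in S180 and 47.7 in DMSO, both well above background. After scaling the difference was 0.25 ± 0.24, about the size of the scanner error and of the replicate-spot SD of the dim tertile. Its sign depended on the scaling: it was -0.03 without scaling and -0.11 on the spike-in scale. The probe lies on chromosome 2 from 84171069 to 84171128, on the minus strand, and 809 kb from that of Aplnr, which lies on the plus strand of the same chromosome.

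Ramp2, whose protein forms the main adrenomedullin receptor with Calcrl, was lower in S180 on both of its probes. The brighter probe, on chromosome 11 from 101109501 to 101109560, had a signal of 2857 in S180 and 4712 in DMSO, a log2 difference of -0.44 ± 0.20, or 1.36-fold lower. The dimmer one, from 101108912 to 101108971, had 382 in S180 and 658 in DMSO, a difference of -0.50 ± 0.20, or 1.42-fold lower. Both differences exceeded 2 times the scanner error, and the replicate-spot SD at their brightness by more. In the bright tertile 23 of 6917 genes had a lower value than the brighter probe of Ramp2, and among all measured genes 779 did.

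Ramp3, the partner for an alternative adrenomedullin receptor, was dim. Its brighter probe, on chromosome 11 from 6577416 to 6577475, had a signal of 75.8 in S180 and 115 in DMSO, a difference of -0.32 ± 0.22. The other probe, from 6577424 to 6577483, had 48.9 in S180 and 85.9 in DMSO, a difference of -0.53 ± 0.23. The probes share 52 bases of the genome and are not independent readings. In the dim tertile 14.0% of genes had a lower value than the brighter Ramp3 probe. The difference of that probe, -0.32, was not far beyond its scanner error or the tertile's replicate-spot SD of 0.256. The spike-in of similar signal had an SD of 0.138.

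Ramp1, the partner that makes the receptor for calcitonin gene-related peptide, had 3 probes on chromosome 1. The brightest, from 93103294 to 93103353 and designed on NM_001168392, had a signal of 61.5 in S180 and 67.0 in DMSO, a difference of 0.16 ± 0.23. A probe designed on NM_016894 whose 60 bases span 26256 bases of the genome, from 93093453 to 93119708, had 17.5 in S180 and 22.7 in DMSO, a difference of -0.10 ± 0.37. The differences of both lay within the scanner error, and that of the brightest probe turned to -0.12 without scaling and -0.20 on the spike-in scale. The other probe, from 93121428 to 93121487, was not well above background on either array, at 6.6 in S180 and 3.3 in DMSO, and no fold is given for it.

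Aplnr, the apelin receptor gene, had a signal of 12.9 in S180 and 14.1 in DMSO on its single probe, on chromosome 2 from 84979638 to 84979697. Neither was well above background, so no fold is given. The lowest signal well above background was 13.1 in S180 and 16.5 in DMSO, so an Aplnr difference below these levels was not detectable. The probe did pass the scanner's weaker flag for a positive signal on both arrays. By the flag used here, the peptide gene Apln was thus measured on both arrays and its receptor gene on neither.

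The gap between peptide and receptor genes within an array does not depend on a factor common to the array. The log2 difference of Adm exceeded that of Ramp2 by 2.68, or 6.40-fold, that of Ramp3 by 2.56 and that of Calcrl by 1.99. The difference of Adm2 exceeded that of Ramp2 by 2.93, or 7.63-fold. These contrasts show unequal change between the genes and do not fix the absolute change of either.

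When the scaling or the background correction was changed, the peptide genes kept their direction and stayed above 2-fold in all of the 7 alternatives that were run on probe values. The Adm difference ranged from 1.88 to 2.24, that of Adm2 from 2.0 to 2.49 and that of Apln from 1.31 to 1.67, with the lowest values of Adm and Apln on the spike-in scale and that of Adm2 with normexp background correction. On the spike-in scale the median gene lay at -0.35 and every difference was lower by about that much, so that positive differences smaller than this turned negative. Both probes of Ramp2 and both of Ramp3 were lower in S180 in all 8 settings, from -0.86 to -0.40 for Ramp2 and from -0.89 to -0.21 for Ramp3. Relative to the median gene on the spike-in scale the shift of Ramp2 was of the same size as with the 75th percentile.

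**Figure D3:**
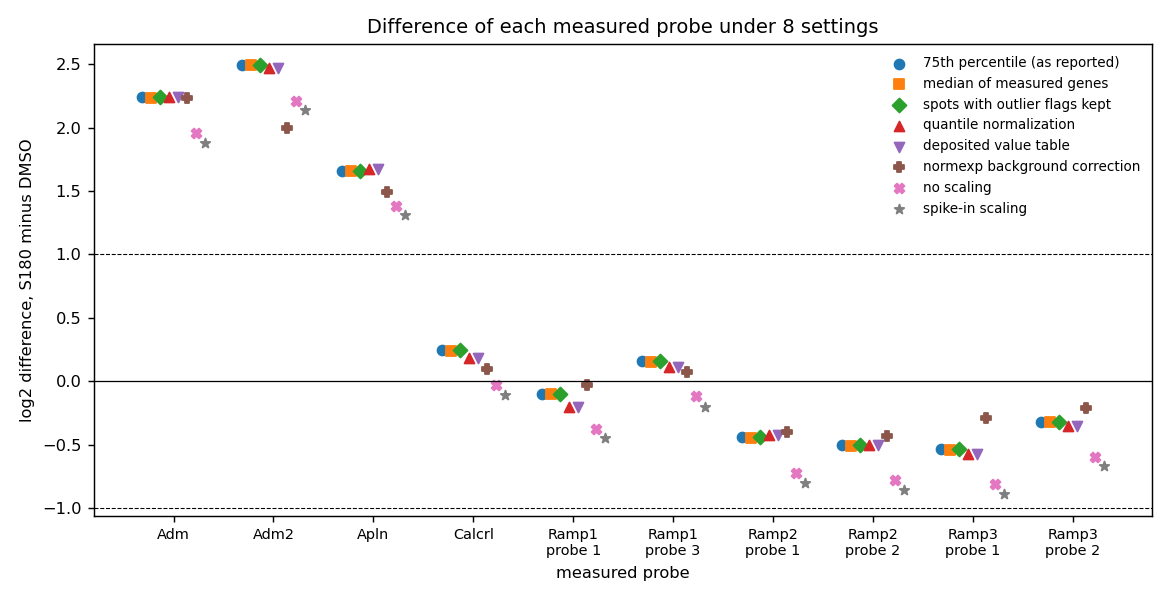
Log2 difference, S180 minus DMSO (y axis), of each of the 10 measured probes (x axis) under 8 settings, each setting with its own symbol; dashed lines mark 2-fold. Every symbol of Adm, Adm2 and Apln lies above 1, every symbol of Ramp2 and Ramp3 lies between -0.89 and -0.21, and the symbols of Calcrl and of the brightest Ramp1 probe (probe 3) fall on both sides of 0.

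The genes around these peptides, from a list of related peptides, processing enzymes and alternative receptors, differed little. Of 15 such genes 14 had a probe, 7 were measured, and 0 of the 7 were 2-fold apart in either direction; their median difference was 0.03, beside 0.00 over all measured genes. Furin, a protease that cleaves many prohormones, the apelin precursor among them, differed by 0.23. Pam, the enzyme that amidates peptides such as adrenomedullin, differed by -0.20 on its brightest probe, with -0.20 to 0.50 over 4 probes. Mme (neprilysin), a peptidase that degrades vasoactive peptides, was at 0.12, with -0.70 to 0.12 over 4 probes.

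Ackr3, a scavenging receptor for adrenomedullin, was at -0.25, and Crcp, a small intracellular partner of Calcrl complexes, at 0.03. Klkb1, plasma kallikrein, was at 0.03. The related peptide genes Calca, Calcb and Iapp, the calcitonin receptor gene Calcr and the prohormone convertase gene Pcsk1 were not well above background on either array. Apela, the gene of a further Aplnr ligand, was not analysed here. Gpr182, a receptor once proposed to bind adrenomedullin, passed the background flag in S180 but not in DMSO, at 16.4 in S180 and 15.1 in DMSO.

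The signalling machinery below the receptors was largely present and differed little. Of 27 genes of Gs and cyclic AMP signalling 21 were measured, 0 were 2-fold apart and the median difference was -0.04. The largest were Rapgef4, a cyclic AMP sensor, at -0.41 (-0.41 to 0.03 over 3 probes), Adcy6, an adenylyl cyclase, at -0.36, and Crem, a transcription factor that responds to cyclic AMP, at 0.35 (-0.54 to 0.45 over 4 probes). Of 13 genes of Gi signalling and receptor desensitisation 9 were measured, 0 were 2-fold apart and the median was 0.13, which turned to -0.22 on the spike-in scale. With the 75th-percentile scaling Rgs2, which turns off G proteins, was at 0.29, Arrb1 (beta-arrestin 1) at 0.25 and Gnai2, a Gi subunit, at 0.22, all smaller than the shift of about 0.35 that the spike-in scale brings.

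A list of genes for other vasoactive peptides, their receptors and their processing did not, as a whole, show the pattern of Adm, Adm2 and Apln. Of these 33 genes 15 were measured, none was 2-fold apart on its brightest probe and the median was -0.04. The measured peptide and precursor genes were Nppb, Edn1, Kng1, Agt (-0.03) and Nppa (-0.04). The other peptide genes of the list were not measured, so the median rests mostly on receptors and enzymes. The largest difference of the measured genes was that of Nppb, the gene of B-type natriuretic peptide, with signals of 7342 in S180 and 4698 in DMSO. It was 1.90-fold higher (log2 0.93), and 1.05 on the higher of its 2 probes. Bdkrb1, the inducible bradykinin receptor gene, was at 0.45, Kng1, the kininogen gene, at -0.34, and Edn1, the gene of the vasoconstrictor endothelin, at 0.26. Bdkrb1 was dim, with signals of 29.2 in S180 and 26.1 in DMSO, as was Kng1, with 17.9 in S180 and 27.5 in DMSO. Their differences stand beside a replicate-spot SD of 0.256 in the dim tertile.

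Among 14 angiogenic ligand genes 12 were measured, and 1 was 2-fold higher. This was Vegfa, at 1.54, with 0.69 to 1.68 over 4 probes. Pgf, the placental growth factor gene, was 1.74-fold higher (0.80) and Anxa2, the annexin A2 gene, at 0.41, and the median of the list was 0.04. Of 29 HIF-responsive genes, Adm included, 28 were measured, 16 were at least 2-fold higher and 0 were 2-fold lower, with a median of 1.18 and the largest differences in Ak4 (2.41), Adm and Bnip3 (1.93). This list was drawn up with results of these arrays known, so its count is a description. Adm2 and Apln were not on it.

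**Figure D4:**
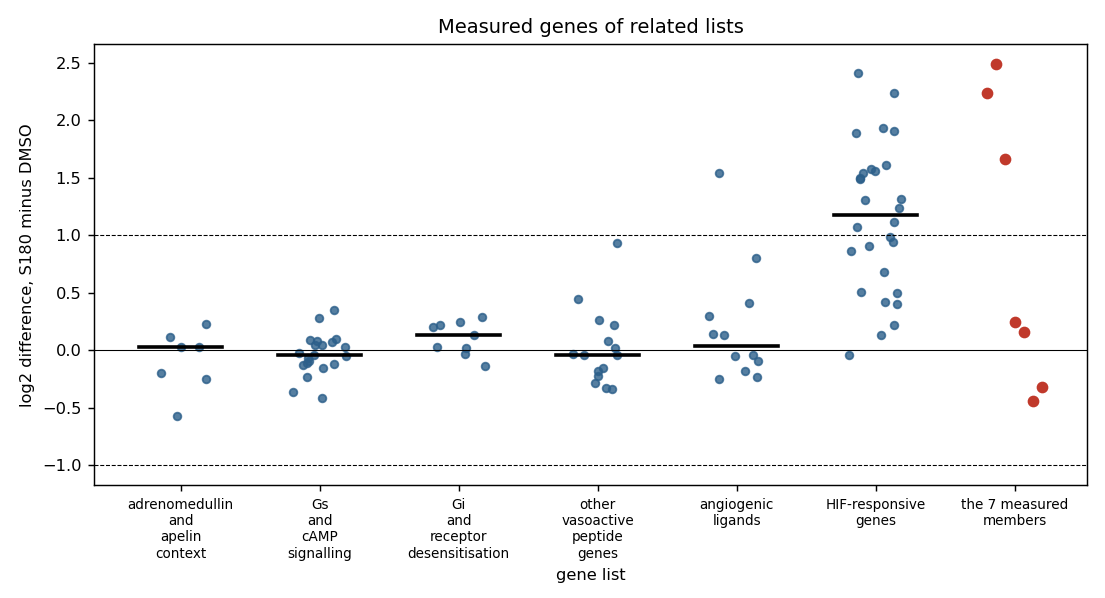
Log2 difference, S180 minus DMSO (y axis), of every measured gene in 6 gene lists (blue points, each on its brightest probe; black bars are list medians) and of the 7 measured members (red, at right); points are spread sideways at random for legibility and dashed lines mark 2-fold. Vegfa, which is on both the angiogenic and the HIF list, and 16 HIF-responsive genes, with Vegfa and Adm among them, are the points past 2-fold in the lists, and the medians of the first 5 lists lie between -0.04 and 0.13.

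The measured genes nearest to Adm in log2 difference, among named genes in the brighter 50% of measured genes, were Slc16a3, a lactate exporter (2.07), Ak4, a mitochondrial adenylate kinase (2.41), and Bnip3, a mitophagy receptor (1.93). Those nearest to Apln were Ero1a, an oxidase of the endoplasmic reticulum (1.61), Dusp8, a MAP kinase phosphatase (1.58), and Pdk1, a kinase that inhibits pyruvate dehydrogenase (1.58). Likeness here rests on 1 difference between 1 S180 and 1 DMSO array and carries no replicate check.

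The labels give no cell type, and markers of several types were measured. Of 12 blood endothelial markers 5 were measured: Egfl7 with signals of 6865 in S180 and 8382 in DMSO, Vwf with 550 in S180 and 740 in DMSO, Flt1 with 452 in S180 and 719 in DMSO, and the dimmer Pecam1 and Esam. The other 7, Cdh5, Kdr, Tek, Tie1, Emcn, Cldn5 and Erg, were not well above background on either array. The summed level of all 12 markers, in units of the 75th percentile, was 13.0 in S180 and 13.4 in DMSO, most of it from Egfl7. Of 4 lymphatic endothelial markers 2 were measured, Prox1 and Pdpn. Of 8 smooth muscle and pericyte markers 7 were measured, with a median difference of 0.07. Only Acta2 was bright, with signals of 18560 in S180 and 17540 in DMSO, a difference of 0.36. The other measured markers were much dimmer, from Cnn1 with 21.5 in S180 and 40.2 in DMSO to Pdgfrb with 286 in S180 and 409 in DMSO. Cnn1 was the 1 marker past 1.5-fold, at -0.62, and Rgs5 was not well above background on either array. All 8 melanocyte markers were measured, and their summed level was 1336 in S180 and 1196 in DMSO, the largest of the marker lists. Sums of different lists compare only roughly, since probes differ in brightness for the same amount of RNA and the lists differ in length. The melanocyte signals ran from Tyr, with 4651 in S180 and 5683 in DMSO, to Mlana, with 215600 in S180 and 233500 in DMSO. Dct had 176400 in S180 and 179300 in DMSO, Pmel 161200 and 174200, and Tyrp1 153200 and 168600.

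Of 6 fibroblast markers 5 were measured, with a median difference of -0.48 and a summed level over all 6 of 2.29 in S180 and 3.31 in DMSO. Lum was the 1 marker past 2-fold, 3.30-fold lower with signals of 22.2 in S180 and 89.0 in DMSO. Col1a2, at -0.83 on its brightest probe and -0.83 to -0.33 over 2 probes, made up most of the difference in the sum. Pdgfra was at -0.48, Dcn at -0.38 and Col1a1 at -0.02, and Thy1 was not well above background on either array. Of 6 epithelial markers 3 were measured, all dim, with Epcam at -0.89, Cdh1 at -0.50 and Krt14 at -0.08, and a summed level over all 6 of 0.114 in S180 and 0.154 in DMSO. Both sums were far below that of the melanocyte markers, 1336 in S180 and 1196 in DMSO, with the same limit on comparing lists. Whether these dim markers come from cells of those types was not tested. Nor was any part of such cells in the differences of Ramp2 and Ramp3. In bulk RNA fewer cells of a type and less RNA per cell cannot be told apart.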

How the data were processed

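RNA was measured on 1-colour (Cy3) Agilent arrays, 1 per sample, and the groups are the agents in the labels. The intensities are as deposited, written by Agilent Feature Extraction 10.7.1.1 with background subtraction and detrending but no scaling between arrays, per the file headers. Flags for background, saturation and outliers were used as deposited. A deposited table of log2 values, whose columns both have a median of 5.28, gave the same member differences, to 2 decimals, as quantile normalization; it is not centred, its direction is that of the arrays, its method is not stated, and it was an alternative.

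Control spots and outlier spots (120 in S180, 195 in DMSO) were dropped. Of 59305 non-control spots per array, outlier spots included, 61.91% in S180 and 60.57% in DMSO were well above background, and none was saturated. Spots of a probe were averaged as log2 intensities before the percentile was subtracted. A gene's value is that of its brightest probe. Genes other than members were named through RefSeq accessions (GRCm38.p6, names only; 32992 probes matched). Both arrays shared a slide and a scan. Exons and UTRs were not annotated here.

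Alternatives were quantile normalization and normexp correction (offset 50; limma 3.58.1, R 4.3.3), the median of measured genes, spike-ins, no scaling, other filters, probe rules and folds, and the deposited table. The counting was checked on simulated arrays whose noise was the same for all probes and below the replicate-spot SD of the dim tertile. That check does not show how many dim genes would pass 2-fold through noise. No p-value was computed.

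Named were all members and the context list (some of its genes are not reported here), the 3 largest differences of each other list, and 3 genes nearest to Adm and to Apln. Edn1, Agt, Nppa and the marker genes were named after their values were seen. Members and lists were chosen with earlier results of these data known.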

Additional observations from a re-analysis of the deposited data

How the results depend on the processing

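No paired analysis was possible because each group has a single array. With 1 array per group no replicate could be left out. The count of members 2-fold higher was 3 in all alternatives except the brighter 50% of measured genes, where it was 1, since that filter keeps only Adm of the peptide genes; no member was 2-fold lower in any alternative. The 122 genes 2-fold higher overall became 639 at 1.5-fold, 24 at 3-fold, 60 in the brighter 50%, 1773 with no filter on dim probes, 62 without scaling, 73 with normexp and 49 on the spike-in scale (8 of 10 spike-in transcripts). The 35 genes 2-fold lower became 355, 2, 3, 810, 173, 8 and 256 under the same alternatives. At 1.5-fold and 3-fold the threshold itself differed, and fewer genes were counted in the brighter 50% and more with no filter. Without scaling and on the spike-in scale every difference was lowered by a common amount. The cause of the moves with normexp was not tested. With the scanner's weaker flag for a positive signal 12 member probes passed in S180 and 11 in DMSO, against 10 on each array. No value of a member past 2-fold reversed. Of the values not named here, 239 moved by less than the spot error or within 1.5 times and 49 by more. Dim signals limit Calcrl, Ramp1, Ramp3 and Aplnr, whose differences rest on signals near background.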
